A study of Mus musculus with 20 samples.

Results

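The genes described here are enzymes that make, activate or inactivate steroid hormones, namely Hsd3b5, Cyp17a1, Hsd11b1, Srd5a1, Hsd17b2 and Akr1c6, in mouse liver. They were chosen by name, with their variation between mice already known. A gene was measured where a probe set had exactly 1 gene symbol in the platform's annotation and that symbol was on the list. Of the 6 genes, 5 were measured, each by 1 probe set, among 18193 genes in all. Srd5a1, a steroid 5-alpha-reductase, had no such probe set and was not analysed here.

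The livers came from 20 C57BL/6J males aged 8 weeks, after a fast of 16 h, and the RNA of each was measured on an Affymetrix 3' expression array of its own. For 4 weeks, 10 mice (MSXH) had eaten a diet with 45 kcal% fat that also held 0.02% of a maple syrup extract that the labels call MSXH. The other 10 mice (HFD) had eaten the diet with 45 kcal% fat alone. Both groups were therefore on the high-fat diet, and the mice on a low-fat diet and on 0.05% of the extract were not analysed here.

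Steroid hormones are altered by enzymes that oxidise, reduce or hydroxylate single positions of the steroid skeleton, and the direction of the step decides whether the hormone gains or loses activity. In the liver these enzymes clear androgens and estrogens and reactivate glucocorticoids. In rodents, many of them differ between the sexes under the control of the pulses of growth hormone. The liver is not a main source of sex steroids, but in mice it transcribes some of the genes used for that purpose in gonads and adrenals.

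The deposited values are levels on a log scale whose base is not stated, and the spread between arrays was strongly compressed. The within-group SD of the median gene was 1.19e-05, and 27 of 18193 genes had an SD above 0.1. Differences are therefore given in units of the SD within groups (standardized differences) and not as folds of RNA. The number of arrays limits the precision, and the number of hepatocytes cannot be told apart from the amount of RNA in each. Of the 8 hepatocyte markers, 7 were measured, and their mean level was 13.806 to 13.815 in MSXH mice and 13.805 to 13.816 in HFD mice, near the top of the range of values, 5.17 to 15.01. Some skeletal muscle markers stood apart in mice MSXH 4 and MSXH 6. Myh1, Acta1 and Tnnc2 reached 12.5, 12.1 and 10.3 in MSXH mice, but Myh4, Ckm and Mb had SDs within groups of 1.29e-05 or less. The mean level over 8 of 8 muscle markers ran from 6.45 to 8.76 in MSXH mice and from 6.45 to 6.54 in HFD mice. The results below were therefore also computed without MSXH 4 and MSXH 6.

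The stretches of DNA just before the genes' starts are given because 3 of these genes, Hsd3b5, Akr1c6 and Hsd11b1, moved together between mice in the deposited values. The sequences are the 250 bases before the start in RefSeq (build GRCm38.p6), 5′ to 3′ on the gene's strand, in lower case, with any match to a searched motif in capitals. They lie at chr3:98645535-98645784 (minus strand) for Hsd3b5, chr13:4434093-4434342 (plus strand) for Akr1c6 and chr1:193242361-193242610 (minus strand) for Hsd11b1.
Hsd3b5: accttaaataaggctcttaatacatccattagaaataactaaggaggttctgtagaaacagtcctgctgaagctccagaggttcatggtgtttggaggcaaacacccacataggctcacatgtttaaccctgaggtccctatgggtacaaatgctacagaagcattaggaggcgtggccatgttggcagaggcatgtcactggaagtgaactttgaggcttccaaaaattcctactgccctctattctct
Akr1c6: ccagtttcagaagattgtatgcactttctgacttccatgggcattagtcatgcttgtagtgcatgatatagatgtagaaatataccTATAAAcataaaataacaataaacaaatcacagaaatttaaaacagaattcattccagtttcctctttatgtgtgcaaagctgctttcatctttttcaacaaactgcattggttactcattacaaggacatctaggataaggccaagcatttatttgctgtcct
Hsd11b1: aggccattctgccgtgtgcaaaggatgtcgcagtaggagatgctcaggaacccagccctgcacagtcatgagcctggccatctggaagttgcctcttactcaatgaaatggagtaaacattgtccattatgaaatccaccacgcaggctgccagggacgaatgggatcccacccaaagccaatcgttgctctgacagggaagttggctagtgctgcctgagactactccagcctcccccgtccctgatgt

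G and C made up 45.2% of these bases for Hsd3b5, 34.0% for Akr1c6 and 54.4% for Hsd11b1, against a median of 52.4% over 32851 windows of the same length. Both strands were searched for 5 motifs. TATAAA, the core of the TATA box, matched Akr1c6 once, at position -164 relative to the start, and 12.4% of all windows hold it. TTCNNNGAA, bound by STAT5, which carries the growth hormone signal, occurs in 7.02% of all windows. CAAAGTCCA, bound by HNF4A, occurs in 0.384%. The full palindromic site of the glucocorticoid and androgen receptors and that of HNF1 each occur in 0.00913%. These 4 motifs are not among the letters of the 3 windows shown. The starts of Cyp17a1 and Hsd17b2 were not analysed here.

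Hsd3b5 (gene ID 15496, chromosome 3, probe set 1420531_at) encodes an enzyme of male mouse liver that reduces 3-ketosteroids such as dihydrotestosterone and so inactivates them. Its level ran from 7.631 to 8.819 in MSXH mice, with a median of 8.362. It ran from 7.903 to 8.814 in HFD mice, with a median of 8.403. The lowest mice were MSXH 7 and MSXH 8, the highest were MSXH 9 and HFD 3, and the groups overlapped over nearly the whole range. The mean was 8.308 ± 0.416 in MSXH mice and 8.400 ± 0.292 in HFD mice (SD, n = 10 each).

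Cyp17a1 (gene ID 13074, chromosome 19, probe set 1417017_at) encodes the 17-alpha-hydroxylase and 17,20-lyase that commits pregnane steroids to androgens. Its level ran from 8.050 to 8.711 in MSXH mice, with a median of 8.470. It ran from 8.038 to 8.617 in HFD mice, with a median of 8.447. Here MSXH 7 and MSXH 8 were the highest mice and HFD 3 and MSXH 9 the lowest, which is the reverse of their place for Hsd3b5, and the groups overlapped. The mean was 8.432 ± 0.234 in MSXH mice and 8.361 ± 0.188 in HFD mice (SD, n = 10 each).

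Hsd11b1 (gene ID 15483, chromosome 1, probe set 1449038_at) encodes 11-beta-hydroxysteroid dehydrogenase type 1, which turns inert 11-keto glucocorticoids into active corticosterone. Its level lay between 12.65720 and 12.65728 in MSXH mice, with a median of 12.65724, and between 12.65720 and 12.65726 in HFD mice, with a median of 12.65723. The whole range over the 20 mice was thus 8.02e-05 on the log scale. The SD was 2.60e-05 in MSXH mice and 1.84e-05 in HFD mice (n = 10 each). MSXH 9 was highest and MSXH 4 lowest, and the groups overlapped.

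Hsd17b2 (gene ID 15486, chromosome 8, probe set 1418352_at) encodes 17-beta-hydroxysteroid dehydrogenase type 2, which oxidises estradiol and testosterone to their weaker 17-keto forms. Its level ran from 10.1589 to 10.1642 in MSXH mice, with a median of 10.1625, and from 10.1621 to 10.1649 in HFD mice, with a median of 10.1629. MSXH 8 and MSXH 7 were the lowest mice and HFD 5 the highest. At the low end, 5 MSXH mice lay below every HFD mouse, and the groups overlapped above that. The mean was 10.1622 ± 0.00187 in MSXH mice and 10.1632 ± 0.000869 in HFD mice (SD, n = 10 each).

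Akr1c6 (gene ID 83702, chromosome 13, probe set 1417085_at) encodes an aldo-keto reductase of mouse liver that acts on the 17 position of estrogens and androgens. Its level ran from 12.4448 to 12.4519 in MSXH mice, with a median of 12.4497, and from 12.4479 to 12.4520 in HFD mice, with a median of 12.4502. MSXH 7 and MSXH 8 were again the lowest mice, HFD 5 and MSXH 9 the highest, and the groups overlapped. The mean was 12.4491 ± 0.00256 in MSXH mice and 12.4501 ± 0.00128 in HFD mice (SD, n = 10 each).

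**Figure D1:**
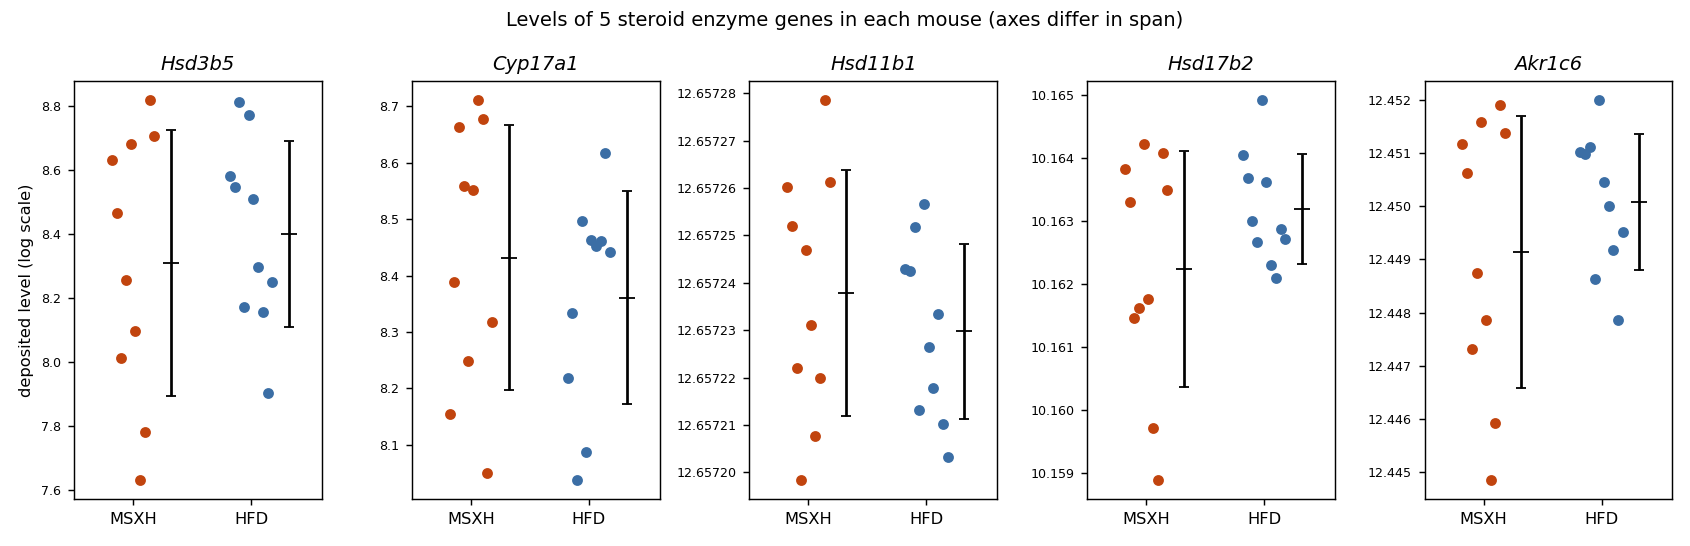
Deposited log level (vertical axis, own scale in each panel) of the 5 measured genes in each of 10 MSXH mice and 10 HFD mice, with 1 point per mouse and bars for the mean and SD of each group. The groups overlap in every panel, and the scale of Hsd3b5 spans over 1 log unit, whereas that of Hsd11b1 spans under 0.0001.

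The amount of variation differed greatly between the 5 genes. The pooled SD within groups was 0.359 for Hsd3b5 and 0.213 for Cyp17a1, which ranked 9 and 13 among 18193 genes. It was 0.00202 for Akr1c6 and 0.00146 for Hsd17b2, at ranks 385 and 458, so that 2.11% and 2.51% of genes varied more. For Hsd11b1 it was 2.25e-05, at rank 5792, and 31.8% of genes varied more. This spread was known when the genes were chosen and is given as a description. The list was named for variation between mice, which holds for the other 4 genes more than for Hsd11b1.

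In every one of the 5 genes the spread was numerically wider in MSXH mice than in HFD mice, but no difference in spread passed the test. The SD in MSXH mice over that in HFD mice was 2.15 for Hsd17b2, 2.00 for Akr1c6, 1.42 for Hsd3b5, 1.41 for Hsd11b1 and 1.24 for Cyp17a1. The value of Hsd11b1 depended on the scaling. Its mean absolute deviation in MSXH mice over that in HFD mice was 1.41 as deposited. It was 7.91 with each array centred on its median (limma adjusted p = 0.204). Those medians ranged more widely than Hsd11b1, from 6.52162 to 6.52255 in MSXH mice, so that the 7.91 largely follows the medians. In limma on the absolute deviations from the group median, the unadjusted p was 0.0148 for Akr1c6 and 0.0188 for Hsd17b2, and the adjusted p of the 5 genes lay between 0.996 and 0.99993. At an adjusted p of 0.05 this test called 0 of all 18193 genes (0%), and 785 genes (4.31%) lay under 0.05 before adjustment. It called 13 genes without HFD 2, 1 without each of HFD 1, HFD 7 and HFD 10, and 2 with deviations from the group mean, none of them a steroid enzyme gene. This test recovered 1 of 200 genes given a 6-fold spread in simulated data, so it could hardly make a call. A version on log2 of the deviations from the group mean, chosen after seeing the data, recovered 83 of 200. It called 55 genes (0.302%), 6.8% of genes lay under 0.05 before adjustment, and the 5 steroid enzyme genes had adjusted p values of 0.707 to 0.892. Without MSXH 4 and MSXH 6 this version called 0 genes in limma.

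Between mice, the 5 genes fell into a set of 4 that moved together and Cyp17a1, which moved against them. Over 20 mice, with the group means removed, 10 of 10 pairs of genes were correlated in a permutation test with 100000 permutations within groups, with adjusted p values of 2e-05 to 0.00052 for Pearson r over the 10 pairs. Spearman rho ran from 0.785 to 0.965 in size, with adjusted p values of 2e-05 to 0.0003. The share of all gene pairs that would pass this test was not computed. Over all other genes, the median size of r with each of these 5 genes was 0.248 to 0.269. Since each mouse gives all 5 values from 1 array, the pairs share their RNA and their array. The genes were chosen with their variation between these same mice known, and the p values take no account of that choice.

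The closest pair was Hsd3b5 and Akr1c6, the 3-ketosteroid reductase and the aldo-keto reductase, with a Pearson r of 0.976 (Spearman rho 0.965). Within the groups r was 0.996 in MSXH mice and 0.960 in HFD mice. Hsd17b2 joined them, with r of 0.920 with Akr1c6 and 0.875 with Hsd3b5. Hsd11b1 did so less closely, with r of 0.835 with Hsd3b5, 0.817 with Akr1c6 and 0.749 with Hsd17b2.

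Cyp17a1 was low where the other genes were high. Its r with Hsd3b5 was -0.933 (Spearman rho -0.938), which was -0.940 within MSXH mice and -0.926 within HFD mice. MSXH 7 shows the pattern at one end, with 7.631 for Hsd3b5 and 8.711 for Cyp17a1. HFD 3 shows it at the other end, with 8.814 for Hsd3b5 and 8.038 for Cyp17a1. Cyp17a1 had r of -0.890 with Akr1c6, -0.883 with Hsd11b1 and -0.795 with Hsd17b2.

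**Figure D2:**
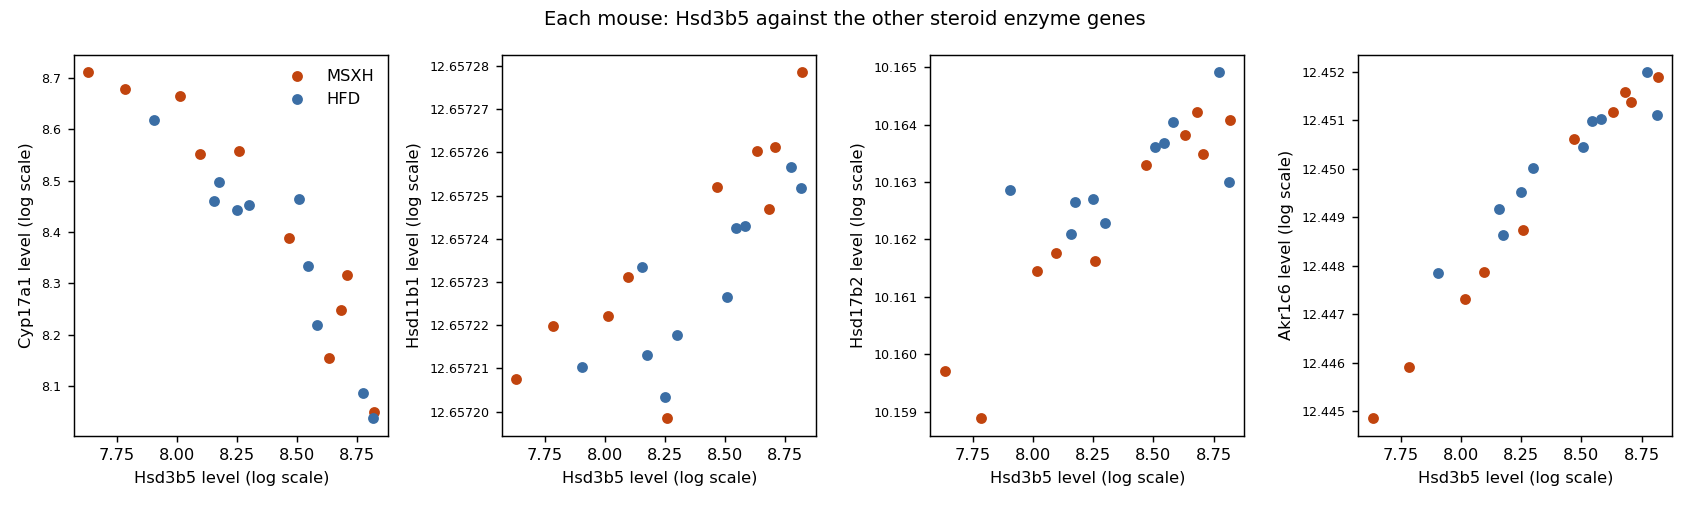
Deposited log level of Cyp17a1, Hsd11b1, Hsd17b2 and Akr1c6 (vertical axes, own scale in each panel) against that of Hsd3b5 (horizontal axes), with 1 point per mouse, for 10 MSXH mice and 10 HFD mice. Cyp17a1 falls along the range of Hsd3b5 (r -0.933 with the group means removed), and the other 3 genes rise along it, Akr1c6 most closely (r 0.976).

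The pairs that involve Hsd17b2 had lower correlations in HFD mice. Hsd17b2 with Hsd3b5 had r of 0.958 in MSXH mice and 0.677 in HFD mice. Hsd17b2 with Cyp17a1 had r of -0.900 in MSXH mice and -0.601 in HFD mice, and the value in HFD mice did not pass (adjusted permutation p = 0.065). Hsd17b2 with Hsd11b1 in HFD mice had r of 0.642 (adjusted permutation p = 0.0488) and Spearman rho of 0.624 (adjusted permutation p = 0.0672), so that the call depended on the measure. Whether r differed between the groups was not tested, and the spread of Hsd17b2 was smaller in HFD mice.

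Leaving out the 2 mice farthest from the median of 1 gene of each pair left the size of r between 0.761 and 0.964 over the 10 pairs, and every pair still passed. Without MSXH 4 and MSXH 6 it was 0.783 to 0.975, and again every pair passed. The correlations of Hsd11b1 did depend on the scaling. With each array centred on its own median, its r was 0.136 with Hsd3b5, -0.232 with Cyp17a1, 0.316 with Hsd17b2 and 0.278 with Akr1c6, and none of these 4 passed (adjusted permutation p of 0.465 to 0.638). The other 6 pairs passed under centring and after quantile normalization, which lowered r of Hsd3b5 with Akr1c6 to 0.575 and left that of Hsd3b5 with Cyp17a1 at -0.933. Array medians ran from 6.52162 to 6.52255 in MSXH mice and from 6.52156 to 6.52171 in HFD mice, a range wider than that of Hsd11b1.

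**Figure D3:**
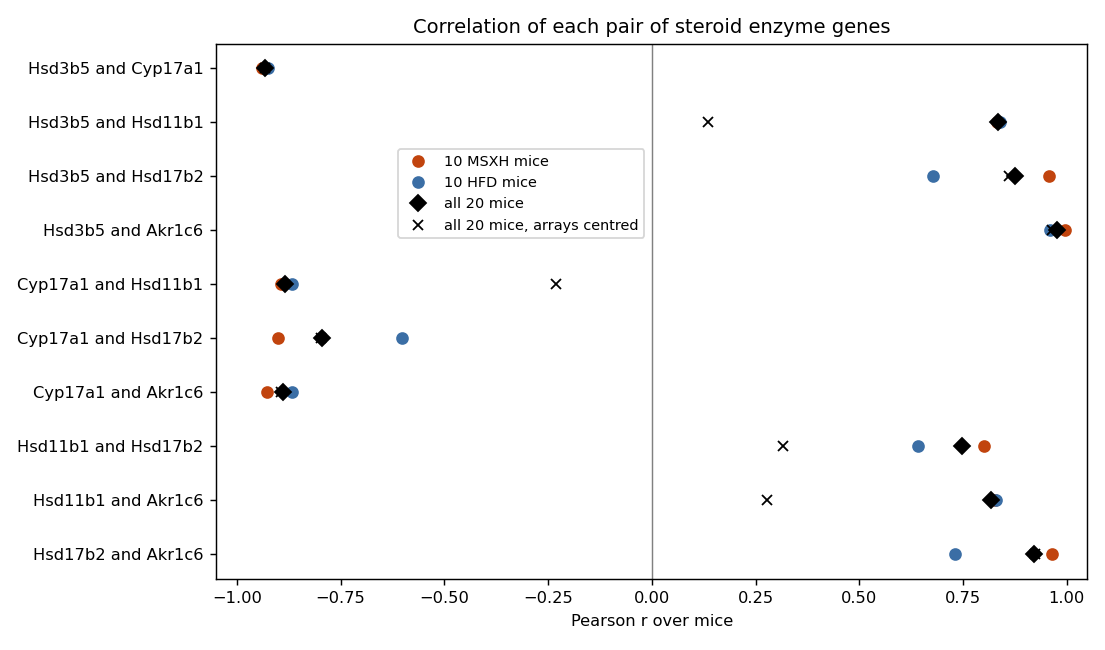
Pearson r of each of the 10 pairs of genes (rows), over all 20 mice with the group means removed and within the 10 MSXH mice and the 10 HFD mice. Crosses give r over all 20 mice with each array centred on its median. There the pairs of Hsd11b1 had r of 0.136 with Hsd3b5, -0.232 with Cyp17a1, 0.316 with Hsd17b2 and 0.278 with Akr1c6. Cyp17a1 pairs lie below 0 and all others above it, and the pairs with Hsd17b2 have smaller r in HFD mice.

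The covariation was also set against the rest of the array. With Hsd3b5, 283 of 18192 other genes (1.56%) had r of 0.8 or more over the 20 mice and 242 (1.33%) had r of -0.8 or less, 2.89% in all, and the median size of r was 0.268. With Cyp17a1 these shares were 1.35% and 1.45%. The genes most like each enzyme gene, by r of deviations from the group means over the 20 mice, were as follows, and these values are descriptions.

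For Hsd3b5 they were Sec61b (r 0.977), a subunit of the channel for proteins entering the endoplasmic reticulum, Akr1c6 (0.976) and Aox3 (0.963), an aldehyde oxidase. The most opposed gene was Tpi1 (r -0.966), a glycolytic enzyme. For Cyp17a1 they were As3mt (r 0.982), an arsenic methyltransferase, 1810053B23Rik (0.962) and Gfra1 (0.950), a receptor of a neurotrophic factor. The most opposed gene was Vkorc1 (r -0.950), the vitamin K epoxide reductase.

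For Hsd11b1 they were Ociad2 (r 0.925), Ugt2b34 (0.925), a glucuronosyltransferase, and the steroid dehydrogenase gene Hsd3b2 (0.923), and Slc25a3 was most opposed (r -0.911). For Hsd17b2 they were Acsm5 (r 0.952), an acyl-CoA synthetase, Akr1c20 (0.929) and Aqp1 (0.923), a water channel, and Tmem41a was most opposed (r -0.917). For Akr1c6 they were Hsd3b5 (r 0.976), Akr1c20 (0.968) and Adh1 (0.955), an alcohol dehydrogenase, and Myh10 was most opposed (r -0.962).

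Likeness depended on the scaling for many of these genes, an alternative chosen after seeing the data. Of the 20 values given, 16 kept their direction and a size of 0.8 or more under centring. After quantile normalization 4 of the 16 that could be computed did so, which were Aox3, As3mt, 1810053B23Rik and Acsm5. Aox3 with Hsd3b5 had r of 0.960 under centring and 0.950 after quantile normalization, and As3mt with Cyp17a1 had 0.979 and 0.980. Acsm5 with Hsd17b2 had 0.952 and 0.922. Under centring Vkorc1 with Cyp17a1 had r of -0.368, Hsd3b2 with Hsd11b1 had 0.356 and Tmem41a with Hsd17b2 had -0.727. The array medians ranged more widely than Vkorc1 and Hsd11b1, so that values with either under centring largely follow the medians. After quantile normalization Sec61b with Hsd3b5 had 0.674, Gfra1 with Cyp17a1 had 0.350, Aqp1 with Hsd17b2 had 0.544, Adh1 with Akr1c6 had 0.266, Akr1c20 with Akr1c6 had 0.668 and Myh10 with Akr1c6 had -0.250. Tpi1 with Hsd3b5 had r of -0.923 under centring and 0.0367 after quantile normalization. Ghr and C8a, treated below, had the same 0.0367, so it is not read as a property of Tpi1. Slc25a3 with Hsd11b1 turned to 0.995 under centring, where the array medians taken off ranged more widely than Hsd11b1.

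Other enzymes of steroid metabolism partly followed Hsd3b5. Of 40 listed, 32 were measured, and 8 of them had r of 0.8 or more with Hsd3b5, 0 had r of -0.8 or less, and the median size of r was 0.461. The 8 were 4 aldo-keto reductases, Akr1c20 (r 0.924), Akr1c12 (0.910), Akr1c21 (0.882) and Akr1c13 (0.830), and the hydroxysteroid dehydrogenases Hsd3b2 (0.883), Hsd17b12 (0.843), Hsd3b3 (0.820) and Hsd17b6 (0.813). These aldo-keto reductase genes lie on chromosome 13, as Akr1c6 does, and Hsd3b2 and Hsd3b3 lie on chromosome 3, as Hsd3b5 does. The genes of both families are similar in sequence, and probe sets can pick up RNA of related genes, whose share in these r values was not tested. Hsd3b2 and Hsd3b3 are also named together with Hsd3b6 on a further probe set, which was left out. Sult1e1, the estrogen sulfotransferase, ran the other way with r of -0.682. The r of Hsd3b2, Hsd3b3, Hsd17b6, Hsd17b12 and Akr1c20 stayed at 0.8 or more under centring and after quantile normalization. Those of Akr1c12, Akr1c21 and Akr1c13 were 0.510, 0.190 and 0.305 under centring, and Akr1c13 turned to -0.128 after quantile normalization. The array medians ranged more widely than Akr1c12, Akr1c21 and Akr1c13, so their r under centring follows the medians at least in part.

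Among electron donors and enzymes that supply cofactor, 5 of 8 were measured and 2 had r of 0.8 or more with Hsd3b5. These were Cyb5a (r 0.868), cytochrome b5, which raises the lyase activity of the Cyp17a1 protein, and its reductase Cyb5r3 (0.839). Fdx1, a ferredoxin, had r of 0.791, and H6pd, which makes the NADPH that the Hsd11b1 protein uses, had r of 0.292 with Hsd3b5. Under centring r was 0.103 for Cyb5a and 0.550 for Cyb5r3, so that 0 of 5 reached 0.8. The array medians taken off ranged more widely than either gene, and the SD within groups of Cyb5a was 1.12e-05. The r of Cyb5a under centring therefore largely follows the medians and is not read as a lost correlation.

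Among nuclear receptors and growth hormone signalling genes, 13 of 15 were measured. Ghr, the growth hormone receptor, had r of 0.848 with Hsd3b5, and it was the only one of the 13 with r of 0.8 or more. Its r was 0.722 under centring. After quantile normalization r was 0.0367, the value that C8a, Hnf4a and Tpi1 also had, so it is not read as a property of Ghr. Nr1i3, the xenobiotic receptor CAR, had r of 0.484, Stat5a 0.130 and Bcl6, a transcriptional repressor, -0.159.

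Of the genes that male mice are known to express more in liver, 9 of 14 were measured, and the median size of r with Hsd3b5 was 0.783. The 4 with r of 0.8 or more were Ugt2b38 (r 0.915), a glucuronosyltransferase, Slco1a1 (0.896), an organic anion transporter, C8a (0.819), a complement component, and Elovl3 (0.813), a fatty acid elongase. Cyp7b1, the oxysterol 7-alpha-hydroxylase, had r of 0.760 and C6 had 0.128. Ugt2b38 kept r of 0.913 under centring and 0.902 after quantile normalization, whereas C8a had 0.426 and 0.0367, and Slco1a1 had 0.913 and 0.288. The 0.0367 of C8a is the value that Ghr also had and is not read as a property of C8a. Its 0.426 follows the array medians at least in part, since they ranged more widely than C8a. Of the female-biased genes, 7 of 12 were measured, 0 had r of 0.8 or more in size, and the median size of r was 0.215. Most lay low on the array: Sult3a1, Hao2, Cyp3a44, Cyp2b13 and Cyp2b9 had mean levels of 5.48 to 6.22, below every array median. Sult3a1 had r of -0.577 with Hsd3b5, and Hao2, Cyp3a44, Cyp2b13 and Cyp2b9 had r of -0.215 to 0.186. At such low levels these r can not be set against those of the male-biased genes. Acot3 and Fmo2, at 6.89 and 7.57, had r of 0.539 and -0.493.

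Glucocorticoid targets, genes whose transcription corticosterone raises, ran against Hsd3b5. All 15 were measured and all 15 had a negative r, with a median size of 0.644, where 9365 of all 18192 other genes had a negative r. The 4 with r of -0.8 or less were the metallothioneins Mt1 (r -0.889) and Mt2 (-0.854), Lcn2 (-0.864), an iron-trapping lipocalin, and Tdo2 (-0.811), which degrades tryptophan. Zbtb16, a transcription factor, had r of -0.615 and Gadd45g, a stress gene, had -0.352. All 15 stayed negative under centring, and so did the 13 that still varied after quantile normalization. Of all other genes, 1836 of 18192 were negative under centring and 5080 of 17984 after quantile normalization. Array medians ranged more widely than most genes, so the count under centring largely follows the medians. After quantile normalization several genes shared the same r. Neither count is therefore read as a measure of how unusual the targets are. Mt1 had -0.889 under both, whereas Tdo2 had -0.0698 under centring. The array medians ranged more widely than Tdo2, so that its value under centring largely follows the medians. Mt1 had r of 0.927 with Cyp17a1 and -0.806 with Hsd11b1.

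**Figure D4:**
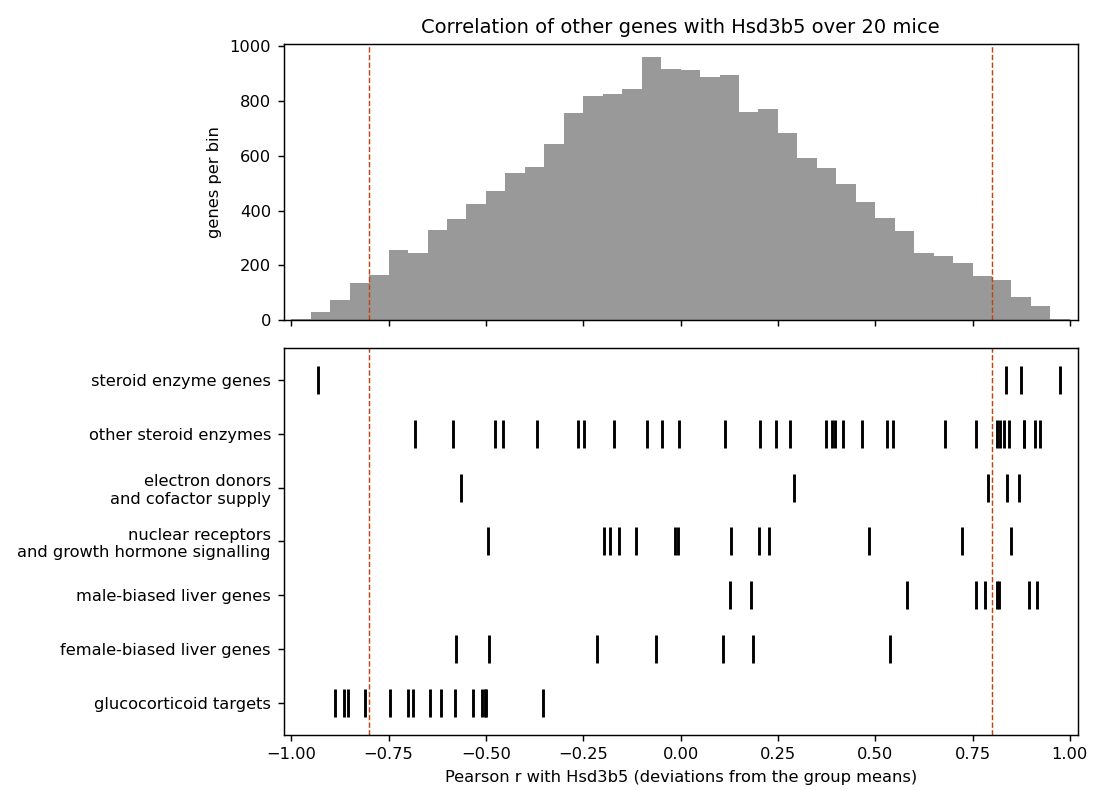
Pearson r with Hsd3b5 over 20 mice, with the group means removed (horizontal axis), as a histogram of the number of genes for 18192 genes (top) and as 1 tick per gene for the steroid enzyme genes and the 6 lists of related genes (bottom), with dashed lines at -0.8 and 0.8. The 15 glucocorticoid targets all lie below 0, and 4 of the 9 male-biased genes lie above 0.8.

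**Figure D5:**
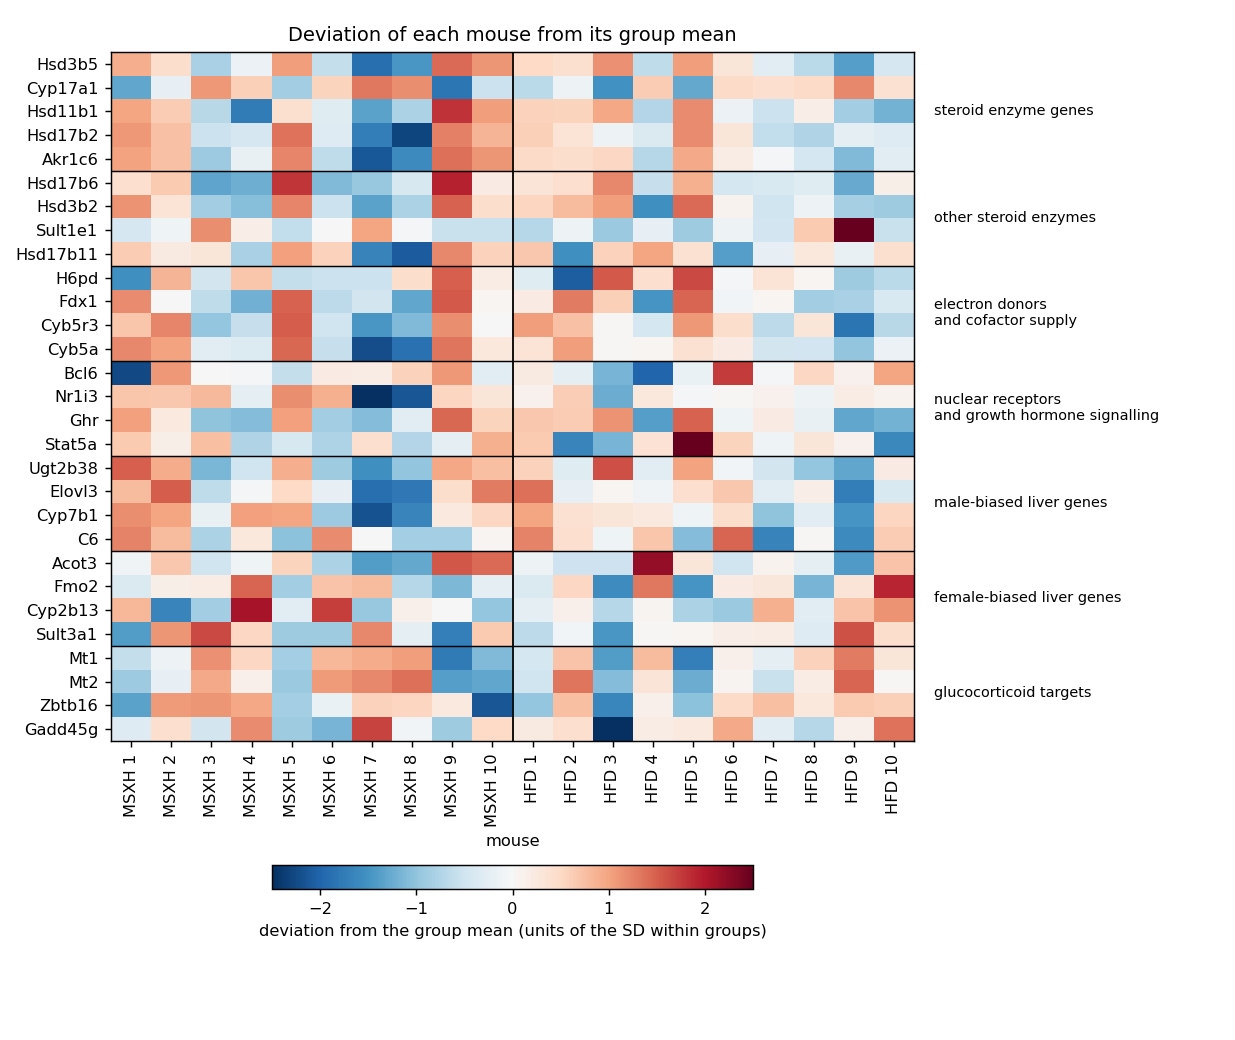
Deviation of each mouse (columns, 10 MSXH then 10 HFD) from its group mean, in units of the SD within groups, for the 5 steroid enzyme genes and the named genes of the 6 lists (rows). MSXH 7 and MSXH 8 are low and MSXH 9 is high for Hsd3b5, Hsd17b2 and Akr1c6, and the reverse holds for Cyp17a1, Mt1 and Mt2.

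Marker genes of other cell types and the array median were set beside Hsd3b5 in the same way, in 6 relations. The mean of the hepatocyte markers had r of -0.726 with Hsd3b5 (adjusted permutation p = 0.00432), -0.910 in MSXH mice and -0.416 in HFD mice, and -0.555 without the 2 mice farthest from the median. Among these markers Tat, which is also a glucocorticoid target, had an SD within groups of 0.0233, against at most 5.25e-05 for the other 6. For the r of each marker mean, however, every marker was first divided by its own SD within groups, so that all counted alike. That mean therefore rests in large part on nearly constant genes. Alb, Apoa1, Ttr and Apoc3 had SDs within groups of 3.73e-07 or less, at ranks 18179 to 18192 among 18193 genes. Single hepatocyte markers had r of -0.868 (Cps1), -0.718 (Apoa1), -0.688 (Tat) and 0.403 (Fgb), and the median was -0.437. The macrophage and Kupffer cell markers, 6 of 6 measured, had r of 0.612 (adjusted permutation p = 0.0323), with mean levels of 8.5797 to 8.5834 in MSXH mice and 8.5797 to 8.5826 in HFD mice. The part of either in the covariation was not tested. The adipocyte markers, 5 of 6 measured, had r of -0.473, which did not pass (adjusted permutation p = 0.121), and -0.657 without MSXH 4 and MSXH 6. Singly, r was -0.760 for Cidec, -0.450 for Fabp4, -0.152 for Retn, -0.147 for Adipoq and -0.0684 for Lep. Spearman rho was -0.704 for the hepatocyte, 0.627 for the macrophage and -0.585 for the adipocyte markers (unadjusted permutation p of 0.00126, 0.0085 and 0.00896). The muscle markers had r of -0.195 and the array median -0.0634, and neither passed. Without MSXH 4 and MSXH 6, the array median had r of 0.468 with Hsd3b5 (unadjusted permutation p = 0.0423), the other direction, and within HFD mice 0.559. Markers of the adrenal cortex and other steroid-making glands, 7 of 8 measured, had a mean level of 6.46002 to 6.46004 in both groups, near the bottom of the range of values, and r of -0.0897.

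No steroid enzyme gene passed the test for a difference between the diets. The standardized difference, MSXH minus HFD, was -0.255 for Hsd3b5 (95% interval -1.13 to 0.629), and when each MSXH mouse was set against each HFD mouse, the MSXH value was higher in 45 of 100 pairs. It was 0.334 for Cyp17a1 (-0.554 to 1.21), with MSXH higher in 61 of 100 pairs. It was 0.356 for Hsd11b1 (-0.533 to 1.24), with MSXH higher in 61 of 100 pairs. It was -0.655 for Hsd17b2 (-1.55 to 0.255), with MSXH higher in 38 of 100 pairs. It was -0.466 for Akr1c6 (-1.35 to 0.430), with MSXH higher in 45 of 100 pairs.

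The limma adjusted p values of these 5 genes were 0.612 for Hsd17b2, 0.733 for Akr1c6, 0.803 for Hsd11b1, 0.818 for Cyp17a1 and 0.870 for Hsd3b5. All 5 unadjusted p values were 0.152 or more in this fit, which had no replicate block. The same limma fit called 0 of 18193 genes (0%) at an adjusted p of 0.05. Before adjustment 1982 genes (10.9%) lay under 0.05, and 1197 of them (60.4%) were higher in MSXH mice. That split turned to 17 of 748 (2.27%) after quantile normalization and 20 of 210 (9.52%) after centring. The intervals above still allow differences of more than 1 SD in at least 1 direction for each gene.

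Of the 6 lists of related genes, no member passed the adjusted threshold in limma. The smallest unadjusted p among them was that of Gadd45g, with a standardized difference of -1.69 (unadjusted p = 0.00109, limma adjusted p = 0.210). Stat5a, a signal transducer of growth hormone, had 1.26 (unadjusted p = 0.00985, limma adjusted p = 0.311), and C6 had -1.14. Hsd17b11, a dehydrogenase of lipid droplets, had -0.954, Sult3a1 had -0.890 and Cyb5a had -0.777. Male-biased genes were numerically lower in MSXH mice in 8 of 9 cases and female-biased genes in 7 of 7, with unadjusted p under 0.05 for 1 and 0 of them. Over all genes, 8247 were numerically lower in MSXH mice in the deposited values, but 17692 were under centring and 16696 after quantile normalization.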

How the data were processed

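Liver RNA of 20 mice was hybridised as biotinylated RNA, 1 Affymetrix 3' array per mouse, per the labels. The authors deposited 45101 probe set values per array, read here as log2 levels. How they were normalized and summarized, and the base of the log, is not given in the sources used here. Probe sets with exactly 1 symbol (34945) were kept, and 64 controls, 932 with more symbols and 9211 absent from the gene table were left out, with some controls also absent from it. The probe set of highest mean stood for a gene. Array medians ran from 6.52156 to 6.52255. No filter on level was set, and groups came from the sample titles.

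Group differences were tested two-sided with limma 3.58.1 in R 4.3.3 (lmFit, eBayes with trend, 18 residual and 0.704 prior degrees of freedom), with the Benjamini-Hochberg adjustment over 18193 genes at 0.05. In simulated data with 18193 genes it recovered 189 of 200 genes shifted by 3 SD and called 6 others. Spread was tested the same way on absolute deviations from the group median. Correlations used deviations from group means, two-sided permutation p values within groups (the smallest that they can give is 1e-05) and the adjustment over 10 pairs. The plan was for 15 pairs of 6 genes, but Srd5a1 was not measured. Python 3.11.15, numpy 2.4.6, scipy 1.17.1, pandas 2.3.3 and matplotlib 3.10.9 were used. Promoter bases came from RefSeq (GRCm38.p6), where 4 of the 6 genes were matched.

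The genes, the lists of related genes and the cell type markers were chosen with earlier results of these data known. Named genes were the 6 enzymes, the 3 genes of largest SD and the 1 of smallest p in each list, the list genes with r of 0.8 or more in size, which were chosen after their values were seen, as was Mt1's r with other genes, and the 3 most alike and 1 most opposed gene of each enzyme gene. No label says that mice that share a replicate number are paired, and they were treated as unpaired. Their deviations correlated at -0.265 to 0.165 over 10 pairs, which cannot exclude a pairing. No label says that the arrays are from separate cages or days. Alternatives were quantile normalization, centring, other probe set choices, other settings of limma, a replicate block and leaving out mice.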

Additional observations from a re-analysis of the deposited data

Results flagged for a closer look

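Over 90 groups of 10 mice, for 45 genes, the gap between the extreme mouse and its nearest neighbour was set against the group's range. A gap above the 95% critical value of Dixon's test was taken as large, which chance alone gives for about 1 in 20 groups. None of the 5 steroid enzyme genes had such a mouse, and 3 related genes did. Bcl6 was low in MSXH 1, at 7.885 against 7.919 in the nearest MSXH mouse, a gap of 0.497 of the range. Sult1e1, the estrogen sulfotransferase, was high in HFD 9, at 6.195 against 6.153 in the nearest HFD mouse, a gap of 0.633 of the range. Nr1i3 was low in HFD 3, at 9.0967 against 9.0986 in the nearest HFD mouse, a gap of 0.594 of the range.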

How the results depend on the processing

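The side of the threshold and the direction of the differences, spreads and Pearson correlations of the 5 genes held under the alternatives run, apart from the exceptions given here. Hsd11b1 turned direction under centring, with a standardized difference of -0.609 (limma adjusted p = 0.230). The array medians that centring takes off ranged more widely than Hsd11b1, so that this value largely follows the medians. Centring also ended the 4 correlations of Hsd11b1, with r of 0.136 with Hsd3b5, -0.232 with Cyp17a1, 0.316 with Hsd17b2 and 0.278 with Akr1c6, or 0.108, -0.174, 0.184 and 0.215 in the same order when MSXH 4 and MSXH 6 were also left out, which was chosen after seeing the data. The r of Cyp17a1 with Hsd17b2 in HFD mice alone, -0.601, did not pass, nor did Spearman rho of Hsd11b1 with Hsd17b2 there, 0.624. The cause was not tested. Quantile normalization made Hsd11b1 constant, so it gave no value there. The number of genes past the limma threshold for the group difference was 1 when probe sets were averaged and 0 to 3 when each mouse was left out in turn, 3 of them without HFD 3. For the spread it was 2 with deviations from the group mean, 55 with log2 of them, and 0 to 13 when each mouse was left out, 13 of them without HFD 2. With each mouse left out, the standardized difference stayed between -0.429 and -0.0501 for Hsd3b5, 0.173 and 0.580 for Cyp17a1, 0.168 and 0.593 for Hsd11b1, -0.833 and -0.473 for Hsd17b2, and -0.639 and -0.264 for Akr1c6. With replicate number as a block, standardized differences were -0.255 for Hsd3b5, 0.334 for Cyp17a1, 0.356 for Hsd11b1, -0.655 for Hsd17b2 and -0.466 for Akr1c6. Adjusted p in limma was 0.499 or more for differences and spread, so no call changed. For the difference of Hsd17b2, however, the unadjusted limma p was 0.0493 with the block and 0.152 without it.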

Other observations

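The genes around Cyp17a1 were also read against the lists, as a description over 20 mice that share their arrays. With Cyp17a1, 1.35% of all genes had r of 0.8 or more and 1.45% had r of -0.8 or less. Of the other steroid enzymes, 7 of 32 had r of -0.8 or less, among them Akr1c21 (r -0.928), Hsd3b2 (-0.915) and Hsd17b6 (-0.883), and 0 had r of 0.8 or more. Ghr, the growth hormone receptor, had r of -0.898 with Cyp17a1, and Nr3c1, the glucocorticoid receptor, had -0.803. Fdx1, the ferredoxin that feeds electrons to mitochondrial steroid hydroxylases, had r of -0.834. Of the 15 glucocorticoid targets, 3 had r of 0.8 or more with Cyp17a1, namely Mt1 (0.927), Mt2 (0.851) and Tdo2 (0.824). Of the male-biased genes, 3 of 9 had r of -0.8 or less, namely Ugt2b38 (-0.926), C8a (-0.845) and Cyp4a12a (-0.841), a fatty acid hydroxylase. Under centring the r of Mt1, Mt2, Ugt2b38, Hsd3b2 and Hsd17b6 stayed at 0.8 or more in size. Those of Akr1c21, Nr3c1 and Fdx1 were -0.287, -0.387 and -0.598 under centring. Those of C8a, Cyp4a12a and Ghr were -0.512, -0.739 and -0.797, and that of Tdo2 turned to -0.0205. The array medians ranged more widely than Akr1c21, Nr3c1, Fdx1, C8a and Tdo2, so the values of these genes follow the medians at least in part. After quantile normalization C8a, Cyp4a12a and Ghr each had -0.145, as did Hnf4a. A value shared by these genes is not read as a property of each. The genes named here were chosen after their values were seen.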
